A study of Mus musculus with 12 samples.

Results

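Glycolysis, fructose and glycogen genes of the liver were described across 12 microarrays of liver RNA from C57BL/6 male mice aged 12 weeks. The groups, of 4 arrays each, were great-grandsons (F3) and grandsons (F2) of obese Avy/a females, and control males with lean control parents. The 9 genes were Pklr, Khk, Gckr, Ldha, Pfkl, Gpi1, Gys2, Pygl and Slc2a2, chosen by symbol as genes of liver carbohydrate use. The choice was made with earlier results of these data known. Of these 9, 8 had a probe set that the annotation named with that symbol alone, 1 probe set each, and all 8 passed the filter on low values. Gpi1, which encodes glucose-6-phosphate isomerase, was not analysed here. The 8 genes stand among 30142 genes with a named probe set, of which 18725 were tested. No comparison between groups gave any of the 8 an adjusted p under 0.05. The differences with the lowest unadjusted p-values were a lower Gckr and a higher Ldha in F2 than in control livers, and higher Pklr, Khk, Gckr and Pygl in F3 than in F2 livers. Both comparisons rest on the same 4 F2 arrays and are not independent. In F3 against control livers, none of the 8 reached an unadjusted p under 0.05.

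Hepatocytes take up glucose and fructose through the transporter GLUT2, the product of Slc2a2. Fructose is phosphorylated by ketohexokinase (Khk), and Gckr encodes a regulatory protein that restrains the phosphorylation of glucose in hepatocytes. Glycolysis then passes through phosphofructokinase (Pfkl, the liver subunit) and pyruvate kinase (Pklr), and lactate dehydrogenase A (Ldha) interconverts pyruvate and lactate. Glycogen is built by liver glycogen synthase (Gys2) and broken down by liver glycogen phosphorylase (Pygl). Pklr is a classic target of the carbohydrate response factor ChREBP (Mlxipl), which binds a pair of spaced E-box-like sequences, whereas E-boxes and the hypoxia response element are known from glycolytic genes such as Ldha.

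Upstream sequences of RefSeq (mouse, GRCm38.p6) were available for 8 of the 9 genes as 10 windows of 250 bases before a start site. They are shown for the windows in which a searched E-box type motif was found. Any relation of the motifs to the differences between groups was not tested. Capitals mark the matched letters, and each sequence is on the plus strand, 5′ to 3′. The Pklr window, chr3:89136373-89136622, lies before the downstream one of its 2 listed start sites, which is the liver-type start by general knowledge and not by the table, and its capitals mark a carbohydrate response element written as CACGNG, 5 bases and CNCGTG.

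Pklr: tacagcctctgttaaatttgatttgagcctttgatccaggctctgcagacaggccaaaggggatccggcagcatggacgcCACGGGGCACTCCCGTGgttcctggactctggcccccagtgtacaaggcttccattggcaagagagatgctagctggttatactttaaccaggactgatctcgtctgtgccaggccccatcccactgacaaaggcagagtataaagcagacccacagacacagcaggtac

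The E-box CACGTG was found in Khk at chr5:30921476-30921505 and at 2 places in Ldha, chr7:46845647-46845676 (upstream) and chr7:46845744-46845773 (downstream), shown with 12 bases on either side.

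Khk: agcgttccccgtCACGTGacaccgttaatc
Ldha upstream: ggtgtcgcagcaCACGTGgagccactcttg
Ldha downstream: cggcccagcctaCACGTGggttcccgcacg

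Both strands were searched in 32851 windows of the same length. The carbohydrate response element was held by 0.0396% of them, and among the 10 windows of these genes by the 1 Pklr window, 170 to 154 bases before the start. The E-box was held by 6.02% of all windows, in Khk 71 to 66 bases before the start and in Ldha 145 to 140 and 48 to 43 bases before it. The hypoxia response element ACGTG, whose letters lie within that E-box and so were found wherever it was, was held by 16.6% of all windows and outside an E-box also by Ldha, 34 to 30 bases before the start, and by Pygl, 131 to 127 bases before it. GTTAAT, letters that the liver factor HNF1 can bind as part of its site, was held by 6.43% of all windows and by those of Khk (60 to 55 bases before the start) and Gckr (59 to 54). Only these exact letters were searched, so HNF1 sites spelled otherwise in the other windows, that of Pklr included, would have been missed. Matches of letters are descriptions of these windows and carry no measurement of binding.

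The arrays were Affymetrix whole-transcript arrays of total RNA from livers of C57BL/6 males aged 12 weeks. There were 3 groups of 4 arrays: great-grandsons (F3) and grandsons (F2) of Avy/a females that were obese, and control males with lean control parents. Avy/a females carry the viable yellow allele of agouti and grow obese, while the males measured are labelled C57BL/6 with no allele or treatment of their own. The labels of single samples call the descendants F2 or F3 sons of an obese mother, and do not give the generation of the control males, or say whether the 4 replicates were separate animals. P-values therefore measure the spread between these samples, which may be technical in part. A value below is a log2 expression value as the authors deposited it (a level), or a difference between such values, and levels were not compared between genes because each has its own probes.

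The tissue label was checked with 8 hepatocyte markers, all above the filter, whose summed level lay between 15.39 and 15.46 in F3, 15.30 and 15.45 in F2 and 15.33 and 15.44 in control livers (log2 of the sum). In bulk RNA, fewer cells of a type and less RNA per cell cannot be told apart. Array medians lay between 4.49 and 4.60, and precision was limited by the 4 arrays a group: the 95% interval of a difference between groups reached a median of 0.193 to either side over all genes. The arrays fell into sets by the mean level of 337 small nucleolar RNA genes, with F3 replicates 1, 2 and 3, F2 replicates 1 and 4 and control replicates 2 and 4 in the higher set (6.33 to 6.44), and F3 replicate 4, F2 replicates 2 and 3 and control replicates 1 and 3 in the lower set (5.89 to 6.03). F2 replicate 2 was the lowest of the 12 arrays for 4 of the 8 genes (Gckr, Gys2, Pygl and Slc2a2) and the highest for Ldha, so results are also given without it. Over all genes, 0 of 18725 passed an adjusted p of 0.05 in any comparison, by limma with Benjamini-Hochberg adjustment. At an unadjusted p under 0.05 there were 172 genes for F2 minus control, 548 for F3 minus control and 443 for F3 minus F2, each fewer than the 936.25 that evenly spread p-values would give.

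**Figure D1:**
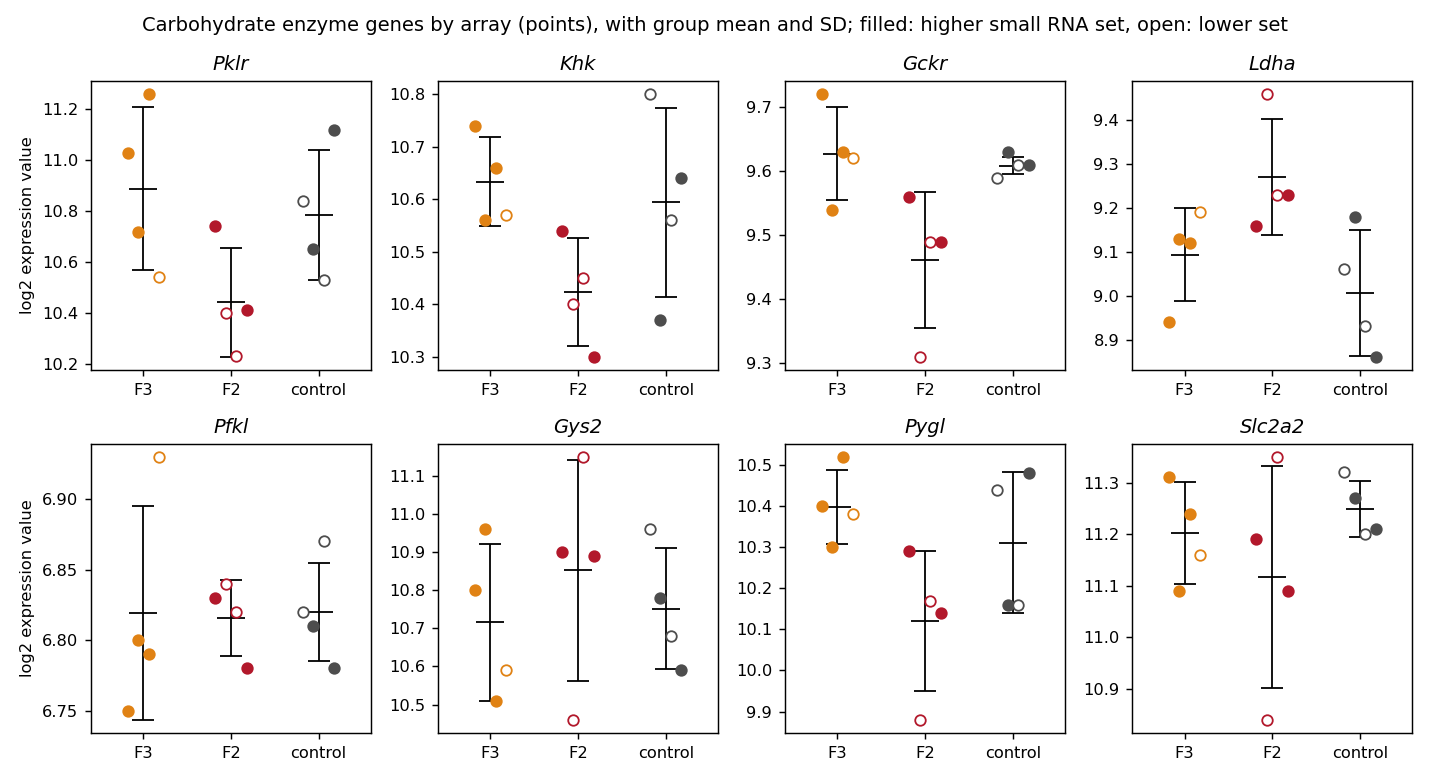
Log2 expression value of each of the 8 genes (y axis) on each array (points) in F3, F2 and control livers (x axis), with the mean and SD of each group of 4, filled points for the higher and open points for the lower small RNA set. All 4 F3 arrays lie above all 4 F2 arrays for Khk and Pygl, and all 4 F2 arrays lie below all 4 control arrays for Gckr.

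Slc2a2, the GLUT2 transporter gene, had log2 levels of 11.31, 11.09, 11.24 and 11.16 in the F3 livers (replicates 1 to 4), 11.19, 10.84, 11.35 and 11.09 in the F2 livers and 11.32, 11.27, 11.20 and 11.21 in the control livers. The F2 group held both the lowest and the highest value of the 12, and the 3 groups overlapped. The difference was -0.13 ± 0.095 (SE, n = 4 a group) for F2 minus control, -0.047 for F3 minus control and 0.085 for F3 minus F2. F2 replicate 2 carried most of the first: without it F2 minus control was -0.038, and F3 minus F2 was -0.0091. With all arrays, the interval for F2 minus control ran from -0.34 to 0.076.

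Khk, which commits fructose to metabolism, had log2 levels of 10.74, 10.56, 10.66 and 10.57 in the F3 livers, 10.54, 10.40, 10.45 and 10.30 in the F2 livers and 10.80, 10.37, 10.56 and 10.64 in the control livers. Every F3 array lay above every F2 array, the closest being F3 replicate 2 at 10.56 and F2 replicate 1 at 10.54, and the control arrays ran from 10.37 to 10.80, with F2 replicate 4 at 10.30 below all of them. F3 exceeded F2 by 0.21 ± 0.089 (SE, 1.16-fold, 95% interval 0.016 to 0.40), with an unadjusted p of 0.0358 and an adjusted p of 0.9999 by limma. The exact permutation test gave 0.0286, two-sided, the smallest p that 4 arrays against 4 allow. F2 minus control was -0.17 (interval -0.37 to 0.022, unadjusted p = 0.0782) and F3 minus control 0.039 (interval -0.15 to 0.23).

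Gckr, the regulatory protein gene, had log2 levels of 9.72, 9.54, 9.63 and 9.62 in the F3 livers, 9.56, 9.31, 9.49 and 9.49 in the F2 livers and 9.59, 9.63, 9.61 and 9.61 in the control livers. All 4 F2 arrays lay below all 4 control arrays, which ran from 9.59 to 9.63, and 3 of 4 F3 arrays lay above all F2 arrays. The F2 level was 9.46 ± 0.11 (SD, n = 4) and the control level 9.61 ± 0.013, a difference of -0.15 ± 0.063 (SE, 0.903-fold, 95% interval -0.28 to -0.011). Its unadjusted p was 0.0361, its adjusted p 0.9999 by limma, and its exact permutation p 0.0286, two-sided. F3 minus F2 was 0.17 (interval 0.030 to 0.30, unadjusted p = 0.0208, exact permutation p = 0.0571), and F3 minus control was 0.019 (interval -0.12 to 0.15). Without F2 replicate 2, the lowest of the 12 arrays, F2 minus control was -0.097 and its unadjusted p was no longer under 0.05.

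Pfkl, the liver phosphofructokinase subunit, had log2 levels of 6.75, 6.80, 6.79 and 6.93 in the F3 livers, 6.83, 6.84, 6.82 and 6.78 in the F2 livers and 6.82, 6.81, 6.87 and 6.78 in the control livers. These groups overlapped throughout, and F3 replicate 4 was the highest array. The differences were 0.0035 for F3 minus F2, -0.0040 for F2 minus control and -0.00055 for F3 minus control, with 95% intervals that all lay between -0.12 and 0.12. Pfkl had the smallest pooled within-group SD of the 8 genes, 0.0506, at the 2.25th percentile of all genes tested.

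Pklr, the liver pyruvate kinase gene, had log2 levels of 11.03, 10.72, 11.26 and 10.54 in the F3 livers, 10.74, 10.40, 10.23 and 10.41 in the F2 livers and 10.84, 10.65, 10.53 and 11.12 in the control livers. In F2, 3 of 4 arrays lay below all control arrays, while F3 replicates 1 and 3 lay above all F2 arrays. The F3 level of 10.89 ± 0.32 (SD, n = 4) exceeded the F2 level of 10.44 ± 0.22 by 0.45 (SE 0.17, 1.36-fold, 95% interval 0.084 to 0.81). That was the widest gap between groups among the 8 genes, with an unadjusted p of 0.0199, an adjusted p of 0.9999 by limma and an exact permutation p of 0.0857. F2 minus control was -0.34 (interval -0.70 to 0.021, unadjusted p = 0.0628, exact permutation p = 0.0857), and F3 minus control was 0.11 (interval -0.26 to 0.47). Pklr also had the largest pooled within-group SD of the 8, 0.267, at the 91.8th percentile of all genes tested, against 0.128 for the median gene.

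Ldha, lactate dehydrogenase A, ran the other way, with log2 levels of 8.94, 9.13, 9.12 and 9.19 in the F3 livers, 9.16, 9.46, 9.23 and 9.23 in the F2 livers and 9.06, 9.18, 8.93 and 8.86 in the control livers. In F2, 3 of 4 arrays lay above all control arrays and F2 replicate 1 lay below control replicate 2. The F2 level of 9.27 ± 0.13 (SD, n = 4) exceeded the control level of 9.01 ± 0.14 by 0.26 (SE 0.089, 1.20-fold, 95% interval 0.071 to 0.46). The unadjusted p was 0.0113, the adjusted p 0.9999 by limma and the exact permutation p 0.0571, two-sided. F3 minus F2 was -0.18 (interval -0.37 to 0.016, exact permutation p = 0.0571) and F3 minus control 0.087 (interval -0.11 to 0.28). Without F2 replicate 2, F3 minus F2 was -0.11, and over the fits that left out 1 array F3 minus control ranged from 0.037 to 0.14. Across all 8 descendant arrays against the 4 control arrays, Ldha was higher by 0.18 (unadjusted p = 0.0411, adjusted p = 0.9998 by limma, exact permutation p = 0.0828 over 495 splits).

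The annotation also named probe sets for a pair of Ldha pseudogene copies, Ldha-ps2 and Ldha-ps. Near-identical copies can share transcripts on an array, so the 3 probe sets are uncertain as separate measurements. Ldha-ps2 averaged 8.98 ± 0.21 in F3, 9.01 ± 0.26 in F2 and 8.57 ± 0.18 in control livers (SD, n = 4), which is 0.41 for F3 minus control and 0.43 for F2 minus control (unadjusted p = 0.0125 and 0.00876, adjusted p = 0.9998 and 0.9999 by limma). All 4 F2 arrays and 3 of 4 F3 arrays lay above all control arrays for Ldha-ps2. Ldha-ps was higher by 0.23 ± 0.13 (SE) in F2 and by 0.15 ± 0.13 in F3 than in control livers, with intervals that included 0. Its level was low, averaging 5.03 in F3, 5.11 in F2 and 4.88 in control livers, near the filter of 4.55.

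Gys2, liver glycogen synthase, had log2 levels of 10.80, 10.96, 10.51 and 10.59 in the F3 livers, 10.90, 10.46, 11.15 and 10.89 in the F2 livers and 10.96, 10.78, 10.68 and 10.59 in the control livers. The F2 arrays held both the lowest and the highest value, and the groups overlapped. The difference from control was 0.10 ± 0.14 (SE) for F2 and -0.036 ± 0.14 for F3, and F3 minus F2 was -0.14 (interval -0.45 to 0.17). Without F2 replicate 2, F2 minus control was 0.23 and F3 minus F2 -0.27. Its pooled within-group SD of 0.225 was at the 87.9th percentile of all genes tested.

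Pygl, liver glycogen phosphorylase, had log2 levels of 10.40, 10.30, 10.52 and 10.38 in the F3 livers, 10.29, 9.88, 10.17 and 10.14 in the F2 livers and 10.44, 10.16, 10.16 and 10.48 in the control livers. All 4 F3 arrays lay above all 4 F2 arrays, the closest being F3 replicate 2 at 10.30 and F2 replicate 1 at 10.29, and 2 control arrays lay within the range of each group. F3 averaged 10.40 ± 0.090 and F2 10.12 ± 0.17 (SD, n = 4), a difference of 0.28 (SE 0.10, 1.21-fold, 95% interval 0.060 to 0.50). The unadjusted p of 0.0164 became 0.9999 after adjustment by limma, and the exact permutation p was 0.0286. F2 minus control was -0.19 (interval -0.41 to 0.027, unadjusted p = 0.0814) and F3 minus control 0.088 (interval -0.13 to 0.31). Without F2 replicate 2, F3 minus F2 was 0.20 and F2 minus control -0.11, and without control replicate 2, F3 minus control was 0.038.

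**Figure D2:**
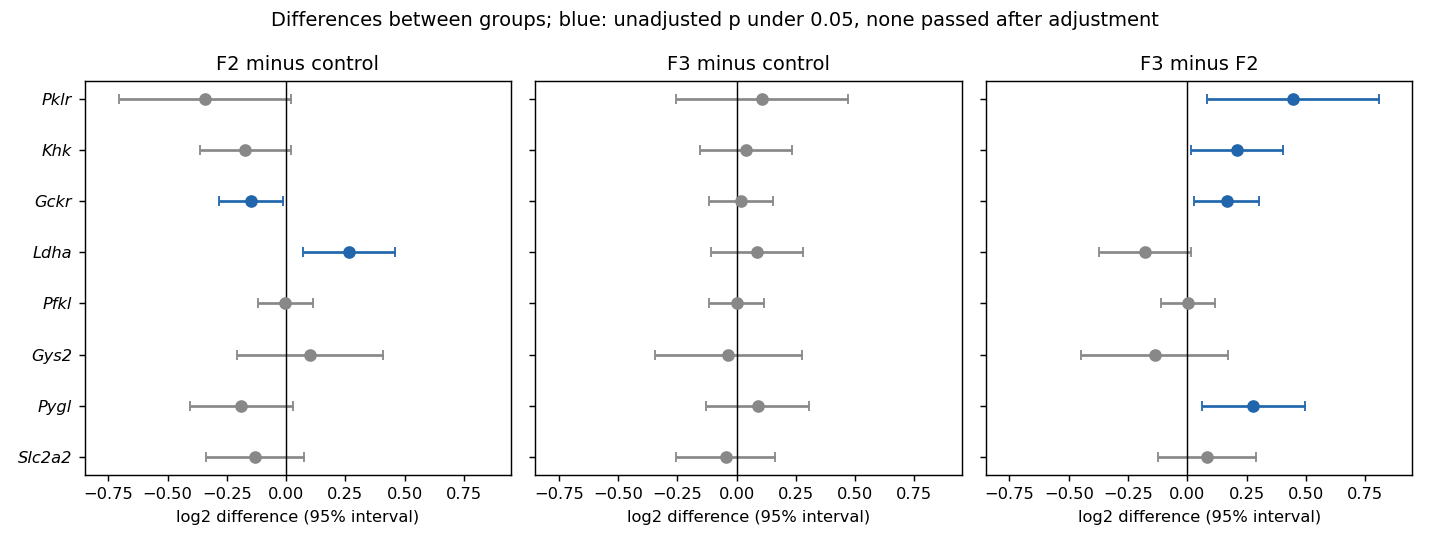
Log2 difference with its 95% interval (x axis) for each of the 8 genes (y axis) in F2 minus control, F3 minus control and F3 minus F2, with blue for an unadjusted p under 0.05. Blue points are Gckr and Ldha in the first panel, none in the second, and Pklr, Khk, Gckr and Pygl in the third, and none of the 8 passed after adjustment in any panel.

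Set side by side, the comparisons of F2 and of F3 with control share the same 4 control arrays and are not independent. F3 minus F2 shares its F2 arrays with F2 minus control and its F3 arrays with F3 minus control, and is not independent of them. The 8 genes were chosen with earlier results of these data known, so shares of all genes beside their counts are descriptions and no independent test. For F2 minus control, 0 of the 8 genes passed the adjusted threshold, as did 0.0% of all genes. At an unadjusted p under 0.05, 1 of 8 was lower (Gckr), against 0.577% of all genes, and 1 of 8 was higher (Ldha), against 0.342%. The groups did not overlap for 1 of 8, Gckr, against 0.705% of all genes. The median difference of the 8 genes was -0.14 with 6 of 8 below 0, while that of all genes was -0.010 with 56.7% below 0. For F3 minus control, 0 of 8 passed after adjustment (0.0% of all genes), 0 of 8 were lower at an unadjusted p under 0.05 (1.28%), 0 of 8 were higher (1.64%) and 0 of 8 did not overlap (1.63%). The median of the 8 was 0.029 there, against -0.010 for all genes. With all 8 descendant arrays against control, 0 of 8 passed after adjustment (0.0%), 0 of 8 were lower at an unadjusted p under 0.05 (0.78%) and 1 of 8, Ldha, was higher (0.71%).

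For F3 minus F2, 0 of 8 passed after adjustment (0.0% of all genes), 4 of 8 were higher at an unadjusted p under 0.05 (1.59%) and 0 of 8 were lower (0.774%). Here too the choice of genes with earlier results known makes these shares descriptions only. The 4 (Pklr, Khk, Gckr and Pygl) also varied together over the 12 arrays, with Pearson r between 0.61 and 0.80, and are not separate results. The groups did not overlap for 2 of 8, Khk and Pygl, against 2.46% of all genes. The median of the 8 was 0.13 with 6 of 8 above 0, against 0.0025 for all genes, of which 48.6% lay below 0. Which of the 4 differences had an unadjusted p under 0.05 depended on single arrays and on scaling. Over the fits that left out 1 array, the difference ranged from 0.32 to 0.56 for Pklr and from 0.17 to 0.25 for Khk. It ranged from 0.12 to 0.20 for Gckr and from 0.20 to 0.33 for Pygl. Leaving out F3 replicate 1 left only Pygl under an unadjusted p of 0.05 (2.38% of all genes in that fit), leaving out F3 replicate 3 left only Gckr (1.70%), and leaving out F2 replicate 2 left Pklr, joined by Gys2 (lower, 2.77%). With F2 replicate 3 left out Gckr and Pygl were under it (1.78%), and with quantile normalization Pklr and Pygl (2.22%). Within the higher small RNA set, F3 minus F2 was 0.43 for Pklr, 0.23 for Khk, 0.11 for Gckr and 0.19 for Pygl. Within the lower set, which held 1 F3 array, it was 0.23, 0.15, 0.22 and 0.36 in the same order, and in neither set was an unadjusted p under 0.05 (3.57% of all genes in the higher and 2.71% in the lower set). With the set as a block, the 4 differences were 0.37, 0.22, 0.15 and 0.26, all at an unadjusted p under 0.05 (3.12% of all genes) and none after adjustment.

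Of the cell type marker lists that were summed, only that of exocrine pancreas, an organ next to the liver, did not overlap between F3 and F2. The gap was narrow, from 7.606 (highest F2) to 7.616 (lowest F3), and no baseline for summed lists was computed. The log2 of the summed level of the 5 of 6 markers with a probe set lay between 7.62 and 7.71 in F3 livers. It lay between 7.52 and 7.61 in F2 livers and between 7.34 and 7.81 in control livers. Of these markers 4 passed the filter, and 3 of 4 were above 0 in F3 minus F2 (median 0.083), where 48.6% of all genes lay below 0. By limma, 1 of 4 was higher at an unadjusted p under 0.05 (1.59% of all genes), and none had an adjusted p under 0.05. Taken singly, the groups did not overlap for 0 of 4 (2.46% of all genes). For stellate cell markers the summed level ran from 10.28 to 10.44 in F3, 10.17 to 10.28 in F2 and 10.02 to 10.32 in control livers, and Kupffer cell markers ran from 10.20 to 10.87, 10.38 to 11.16 and 10.40 to 10.74 in the same order. Of the stellate cell markers, 5 of 6 were above 0 in F3 minus F2 (median 0.12) and 1 of 6 was higher at an unadjusted p under 0.05 by limma (1.59% of all genes). The part of any of these markers in the differences between F3 and F2 was not tested.

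For F2 minus control, the counts also moved with single arrays. Leaving out control replicate 1, control replicate 4, F2 replicate 2 or F2 replicate 4 left only Ldha under an unadjusted p of 0.05, with 0.753% to 1.77% of all genes under it. Without F2 replicate 1 there were 5 of 8 (lower Gckr, Khk, Pklr and Pygl and higher Ldha, 0.929% of all genes) and without control replicate 3 there were 4 (1.49%). Ldha was under that level in each of these fits, with a difference between 0.20 and 0.32. There were 3 without control replicate 2 (3.06% of all genes) and 3 without F2 replicate 3 (0.849%). In the higher and the lower small RNA set, F2 minus control was 0.18 and 0.35 for Ldha, -0.097 and -0.20 for Gckr and -0.31 and -0.37 for Pklr, with 2 F2 and 2 control arrays in each.

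Across the 12 arrays, some pairs of the 8 genes varied together or in opposition. Of the 28 pairs, 13 had a Pearson r above 0 and 15 below, with a median of -0.014. An adjusted permutation p under 0.05 was reached by 4 pairs (Benjamini-Hochberg over the 28 pairs, 100000 resamples, two-sided). Pairs of other genes were not counted, so whether 4 of 28 differs from the share among other genes is not known. These points share arrays, scaling and groups, and only the higher small RNA set, with 7 arrays, was large enough for a value within a set.

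**Figure D3:**
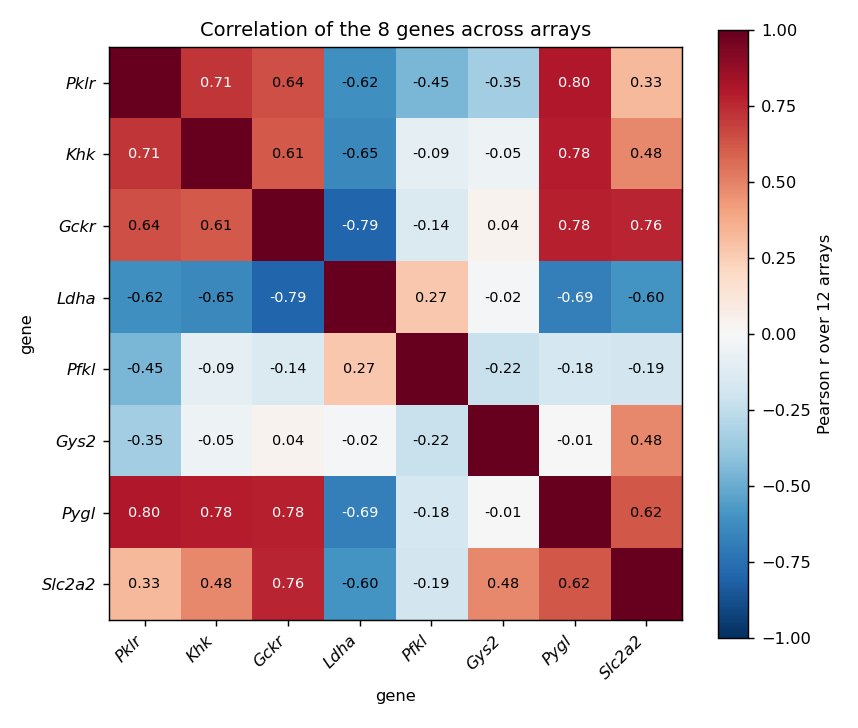
Pearson r over 12 arrays for each pair of the 8 genes, both axes listing genes and colour giving r on a scale of -1 to 1. Pklr, Khk, Gckr and Pygl have r between 0.61 and 0.80 with each other, and Ldha has r between -0.79 and -0.62 with each of them.

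Pygl, which releases glucose units from glycogen, followed Pklr with r = 0.80 and rho = 0.85 (adjusted permutation p = 0.0250 and 0.00868, n = 12). Without F3 replicate 3 and F2 replicate 3, the arrays farthest from the median of Pklr, r was 0.79 (adjusted permutation p = 0.0673). Within the higher set r was 0.97, and for deviations from group means it was 0.65. Pygl followed Khk likewise, with r = 0.78 and rho = 0.88 (adjusted permutation p = 0.0250 and 0.00868), r = 0.82 without the 2 farthest arrays, 0.89 in the higher set and 0.63 for deviations from group means.

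The other pairs past the threshold did not pass it by rank. Gckr and Ldha had r = -0.79 and rho = -0.59 (adjusted permutation p = 0.0250 and 0.126), and Gckr and Pygl had r = 0.78 and rho = 0.62 (adjusted permutation p = 0.0286 and 0.122). Both leaned on F2 replicate 2 and F3 replicate 1, the extremes of Gckr: without them r was -0.49 for Gckr and Ldha and 0.55 for Gckr and Pygl. Within the higher set r was -0.62 and 0.54 for these pairs, and for deviations from group means -0.67 and 0.59. After deviations from group means were taken, 0 of 28 pairs passed the adjusted threshold, and likewise 0 with the 2 farthest arrays left out and 0 after quantile normalization. Slc2a2 and Gckr had r = 0.76 over all arrays and 0.20 without F2 replicate 2 and F3 replicate 1, but 0.93 within the higher set and 0.82 for deviations from group means.

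**Figure D4:**
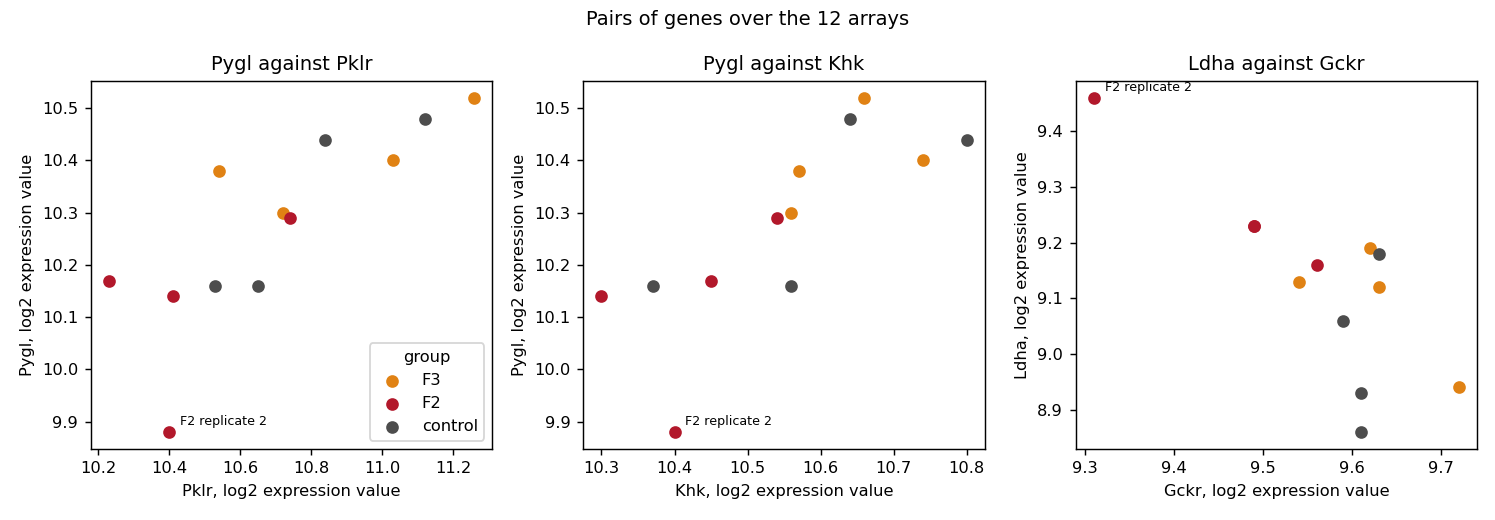
Log2 expression values of Pygl against Pklr, Pygl against Khk and Ldha against Gckr, 1 point an array, coloured by group (F2 replicates 3 and 4 coincide in the third panel). Points run upward together across the 3 groups for Pklr and for Khk, and for Gckr the array at the upper left is F2 replicate 2.

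Genes with the pattern most like each of the 8 over the 12 arrays were sought among 13551 other protein coding genes by Pearson r, as a description. Each r below was picked as the highest of that many genes, and no baseline was computed for it. Pklr was most like Acaca and Fasn, the enzymes that make malonyl-CoA and long-chain fatty acids (r = 0.91 and 0.86), and Slc17a4 (0.90). For Khk these were Cps1 of the urea cycle (0.84), Timd2 (0.84) and Iyd (0.83), and for Pygl Pecr (0.90), Lect2 (0.89) and Pdhb, a subunit of pyruvate dehydrogenase (0.89). For Gys2 the list was Map3k5 (0.92), Gins4 (0.92) and Mknk2 (0.91), and these kept r between 0.84 and 0.86 without the 2 arrays farthest from the median of Gys2. Slc2a2 was most like Ndufaf6 (0.89), Sec16b (0.88) and Mthfd1 (0.87), and Pfkl like Rabac1 (0.92), Use1 (0.91) and Pop5 (0.91). Ldha was most like Abhd2 (0.89), Peg10 (0.86) and Tmem273 (0.83). Without the 2 arrays farthest from the median of Ldha, their r was 0.67, 0.71 and 0.62. Taken the same way, r was 0.68, 0.68 and 0.84 for the genes named with Slc2a2, and 0.79, 0.75 and 0.68 for those with Pfkl. For the genes named with Pklr, Khk and Pygl it ran from 0.72 to 0.90. For Gckr the genes were Rmdn2 (0.89), Nrn1 (0.88) and Car8 (0.88), but without F2 replicate 2 and F3 replicate 1 their r was 0.49, 0.66 and 0.31.

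**Figure D5:**
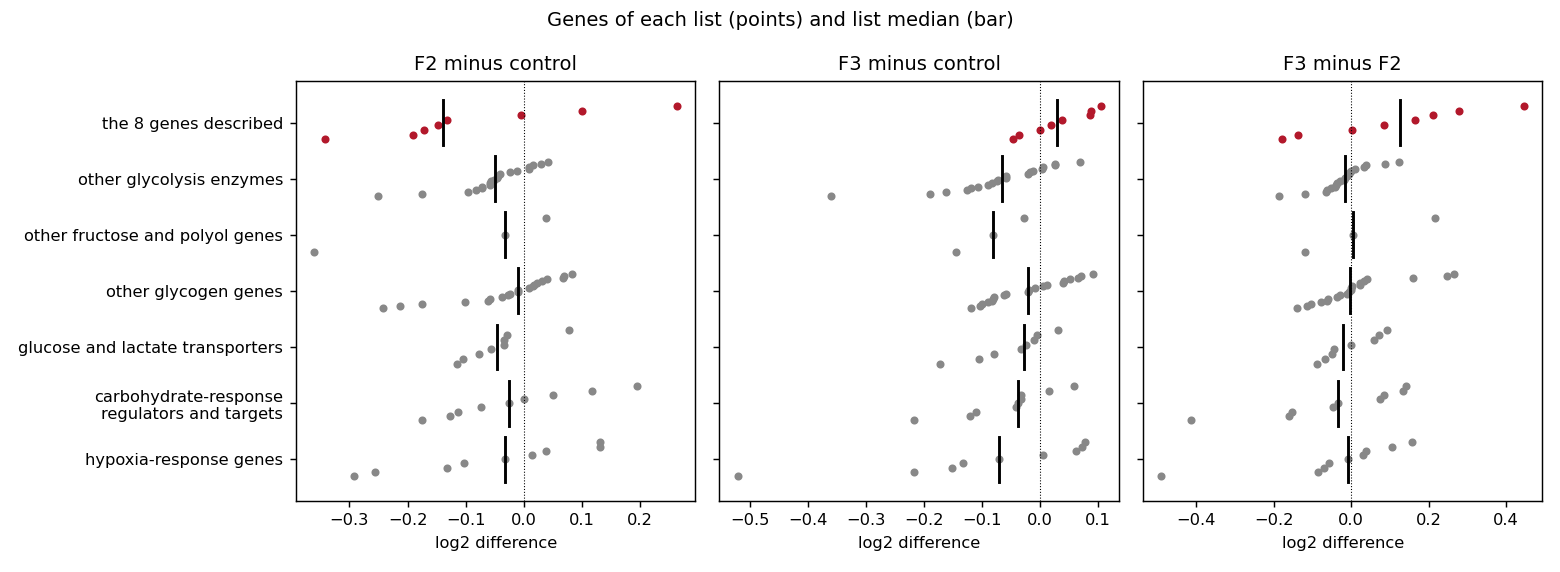
Log2 difference (x axis, with its own range in each panel) of each tested gene (points) in the 8 genes described and in 6 related lists (y axis) for F2 minus control, F3 minus control and F3 minus F2, with a bar at each list's median. The medians of the 6 lists lie between -0.081 and 0.0046, and that of the 8 genes at -0.14, 0.029 and 0.13.

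Other genes of the same pathways were given by lists, and 0 genes of any list passed the adjusted threshold of limma in any comparison. At an unadjusted p under 0.05, 1 of the 69 genes tested over the 6 lists was called for F2 minus control (Tkfc, 1.45% against 0.919% of all genes), 2 of 69 for F3 minus control (Aldoa and Pgam1, 2.90% against 2.93%) and 0 of 69 for F3 minus F2 (against 2.37%). These shares are near or below those of all genes, so the genes named from the lists are given as values. Of 25 other glycolysis enzymes, 20 had a named probe set and were tested, with 15 of 20 below 0 in F3 minus control, 15 of 20 in F2 minus control and 15 of 20 in F3 minus F2 (medians -0.066, -0.049 and -0.017). Of all genes, 54.7%, 56.7% and 48.6% lay below 0 in the same order. Aldolase A (Aldoa) averaged 7.97 ± 0.062 in F3, 8.09 ± 0.064 in F2 and 8.16 ± 0.094 in control livers (SD, n = 4), with -0.19 for F3 minus control (unadjusted p = 0.0103). Phosphoglycerate mutase (Pgam1) averaged 9.25 ± 0.13 in F3, 9.31 ± 0.028 in F2 and 9.41 ± 0.048 in control livers, with -0.16 for F3 minus control (unadjusted p = 0.0278). Aldoc, a brain-type aldolase, was at -0.25 ± 0.14 (SE) for F2 minus control.

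Of 6 other fructose and polyol genes 3 were tested. Triokinase (Tkfc), which phosphorylates the glyceraldehyde released from fructose, averaged 10.09 ± 0.29 in F3, 9.87 ± 0.21 in F2 and 10.24 ± 0.14 in control livers (SD, n = 4), with -0.36 for F2 minus control (interval to -0.055, unadjusted p = 0.0246) and 0.22 for F3 minus F2. Slc2a9, a urate transporter, was at -0.032 and -0.027 for F2 and F3 minus control, and the fructose transporter Slc2a5 at 0.038 and -0.081. Of 23 other glycogen genes 20 were tested, with 11 of 20 below 0 in F2 minus control and 12 of 20 in F3 minus control (medians -0.010 and -0.020). Of all genes, 56.7% and 54.7% lay below 0 in these comparisons. Ugp2, which makes UDP-glucose for glycogen, was at -0.21 for F2 minus control and 0.26 for F3 minus F2, and the branching enzyme Gbe1 at -0.18 and 0.25. Without control replicate 2 and F2 replicate 2, both turned to the other side for F2 minus control, Ugp2 at 0.025 and Gbe1 at 0.11. Epm2a (laforin) and Ppp1r3g, a glycogen-targeting phosphatase subunit, were at -0.080 and -0.12 for F3 minus control.

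Glucose and lactate transporters had 8 of 10 genes tested, with 7 of 8 below 0 in F2 minus control (56.7% of all genes) and 7 of 8 in F3 minus control (54.7%). Their medians were -0.046 and -0.028. The named transporters were the glucose-6-phosphate transporter Slc37a4 (-0.11) and the insulin-responsive Slc2a4 (-0.076) for F2 minus control, Slc2a10 (-0.11) and Slc2a8 (-0.079) for F3 minus control, and Slc2a1 (-0.089) for F3 minus F2. Among 9 carbohydrate-response regulators and targets, all tested, 5 of 9 lay below 0 in F2 minus control (56.7% of all genes) and 7 of 9 in F3 minus control (54.7%). Mlxipl, which encodes ChREBP, averaged 10.11 ± 0.14 in F3, 9.97 ± 0.18 in F2 and 10.10 ± 0.15 in control livers (SD, n = 4), with -0.13 for F2 minus control and 0.14 for F3 minus F2 (interval to 0.37). Mlxip, its paralogue MondoA, was at -0.16 for F3 minus F2, and Arrdc4, a target of these factors, at -0.074 for F2 minus control and -0.12 for F3 minus control.

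Hypoxia-response genes, listed because Ldha is among the targets of that response, had 9 of 10 genes tested. Of these, 5 of 9 lay below 0 both in F2 minus control (56.7% of all genes) and in F3 minus control (54.7%), with medians of -0.032 and -0.071. P4ha1, a collagen prolyl hydroxylase subunit, averaged 6.52 ± 0.36 in F3, 7.01 ± 0.53 in F2 and 7.04 ± 0.24 in control livers (SD, n = 4), with -0.52 for F3 minus control (unadjusted p = 0.0519) and -0.49 for F3 minus F2, which was -0.26 without F2 replicate 3. Ndrg1 was at -0.22 for F3 minus control. For F2 minus control, Pdk1, a pyruvate dehydrogenase kinase, was at -0.29 and Egln3, an oxygen-sensing prolyl hydroxylase, at -0.26. Without control replicate 2 they were at -0.11 and -0.097, and Pdk1 was at 0.034 with F2 replicate 2 left out as well. The other genes of the list ran from -0.13 (Ndrg1) to 0.13 (Egln1 and Bnip3) for F2 minus control.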

How the data were processed

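The deposited table held log2 expression values per probe set and array, which per the submitters' processing notes came from Affymetrix Expression Console. No source used here states the background correction, normalization, summarization or genome build. Their range (0.73 to 13.64) shows that the deposited values are on a log2 scale. Of 72688 probe sets, 30604 were annotated with 1 gene symbol, 2146 with several (not used) and 39938 were unnamed here. The brightest probe set stood for each gene, and 827 symbols were updated from RefSeq. Genes with a mean above 4.55, the median of all probe sets, were tested (18725); 5222 negative control probe sets had a median of 4.24.

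One model of all 12 arrays was fitted by limma 3.58.1 (R 4.3.3; lmFit, eBayes), with Benjamini-Hochberg adjustment over all genes tested, after a test on simulated data. Single genes were also tested by exact permutation of the arrays. Correlations used permutation (scipy 1.17.1). Members and lists were chosen with earlier results of these data known. All members were named; of each other list, the 2 genes with the lowest unadjusted p in F2 minus control and in F3 minus control and the 1 in F3 minus F2; for each member the 3 protein coding genes of highest r; and pseudogene copies.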

Additional observations from a re-analysis of the deposited data

How the results depend on the processing

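Limits: groups of 4 arrays, levels near background for some genes tested, and values whose normalization is not stated bound every comparison. No gene of the 8 passed the adjusted threshold in any alternative (smallest adjusted p 0.507), so alternatives are judged by direction and by counts at an unadjusted p under 0.05, which were added after the data had been seen. Across the 8 genes, some alternative values turned to the other side of 0. Apart from the fits that left out 1 array, these were 4 of 104 for F2 minus control and 13 of 104 for F3 minus control. They were 5 of 104 for F3 minus F2 and 7 of 96 for the mean contrast (F2 and F3 averaged, minus control). In the fits that left out 1 array they were 3 of 64, 10 of 64, 3 of 64 and 10 of 96 in the same order. Most arose where the difference was near 0, and the cause was not tested. Whether replicate numbers pair the samples is not known. Same-numbered arrays had deviations correlated between -0.51 and 0.32, which cannot decide it, as differently numbered arrays were not compared. With the number as a replicate block, 3 of 8 genes for F2 minus control were under an unadjusted p of 0.05 (0.748% of all genes). For F3 minus F2 there were 4 of 8 (1.82%), and 0 passed after adjustment in either. The lower small RNA set alone (5 arrays) held 1 F3 array, F3 replicate 4. The few genes that passed after adjustment there, in the comparisons with F3, rest on that array and are not counted here. In this lower set F3 minus control was -0.14 for Pklr, -0.11 for Khk, 0.085 for Pfkl and 0.034 for Pgam1. F2 minus control was -0.012 for Gys2 in the lower set, and F3 minus F2 was 0.24 for Slc2a1. The mean contrast there was 0.036 for Pfkl and -0.12 for Gys2. In the higher set alone (7 arrays), F2 minus control was 0.0048 for Pfkl, 0.0015 for Slc2a9, 0.076 for Slc37a4, 0.068 for Slc2a4 and 0.069 for Mlxipl. In that set F3 minus control was 0.070 for Gys2, 0.24 for Slc2a5, 0.051 for Slc2a10 and 0.0037 for Slc2a8. There, F3 minus F2 was -0.018 for Pfkl and the mean contrast 0.032 for Khk. The higher set had 0 of 8 genes under an unadjusted p of 0.05 for F2 minus control (2.25% of all genes) and 0 for F3 minus F2 (3.57%). In it, 2 pairs of genes passed the adjusted threshold for correlation. With array weights, F3 minus control was -0.013 for Pklr, -0.0088 for Khk, 0.0076 for Pfkl, 0.0045 for Gys2, -0.0090 for Pygl and 0.0075 for Arrdc4, F2 minus control was 0.012 for Pfkl, 0.058 for Slc2a9 and 0.061 for Arrdc4, with 4 of 8 genes under an unadjusted p of 0.05 (5.16% of all genes, against 0.919% without weights), F3 minus F2 was -0.0043 for Pfkl and the mean contrast 0.0098 for Pfkl. Quantile normalization gave -0.016 for Khk and -0.042 for Gckr in F3 minus control, -0.0088 for Pfkl in F3 minus F2 and -0.029 for Gys2 in the mean contrast. It left 2 of 8 genes under an unadjusted p of 0.05 for F3 minus F2 (2.22% of all genes) and 0 pairs correlated. With array medians centred, Pfkl was 0.013 for F2 minus control, -0.016 for F3 minus F2 and 0.0049 for the mean contrast. In that fit 1 of 8 genes for F2 minus control (0.598% of all genes) and 2 for F3 minus F2 (1.42%) were under an unadjusted p of 0.05. With the array set as a block, Pfkl was 0.016 for F3 minus control and 0.0061 for the mean contrast. With eBayes trend and robust, 1 of 8 genes was under an unadjusted p of 0.05 for F2 minus control (0.865% of all genes). With control replicate 2 and F2 replicate 2 both left out, Khk was -0.035 for F3 minus control, Slc2a2 was -0.0091 for F3 minus F2, F2 minus control was 0.10 for Slc2a9, 0.025 for Ugp2, 0.11 for Gbe1, 0.039 for Arrdc4 and 0.034 for Pdk1, and 1 pair was correlated. No pair passed for deviations from group means (0) or with the 2 farthest arrays left out (0). Leaving out single arrays in turn, values for F3 minus control ranged from -0.018 to 0.22 for Pklr, -0.035 to 0.11 for Khk, -0.012 to 0.047 for Gckr, -0.037 to 0.022 for Pfkl, -0.12 to 0.034 for Gys2, -0.24 to 0.032 for Slc2a5 and -0.19 to 0.0075 for Slc2a10. For F2 minus control they ranged from -0.017 to 0.011 for Pfkl, -0.00012 to 0.23 for Gys2, -0.087 to 0.069 for Slc2a9, -0.24 to 0.0096 for Slc37a4 and -0.14 to 0.012 for Arrdc4. For F3 minus F2 they ranged from -0.033 to 0.026 for Pfkl, -0.0091 to 0.16 for Slc2a2 and -0.21 to 0.018 for Slc2a1, and for the mean contrast from -0.14 to 0.0034 for Khk, -0.020 to 0.013 for Pfkl, -0.021 to 0.10 for Gys2 and -0.10 to 0.0054 for Pygl. The count of the 8 genes under an unadjusted p of 0.05 ran from 1 to 5 for F2 minus control, with 0.753% to 3.06% of all genes under it. For F3 minus F2 it also ran from 1 to 5 (1.70% to 3.65% of all genes), and that of correlated pairs from 2 to 8.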
